A study of Mus musculus with 17 samples.

Results

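Primary cholangiocytes, the epithelial cells that line the bile ducts, were compared with undifferentiated adult hepatic progenitor cells on single-colour Agilent mouse arrays. The members were the 2 arrays titled as primary cholangiocytes, hybridisations 3 and 4, and the 4 arrays titled Undiff, hybridisations 1 to 4. They are 6 of the 17 arrays of the series, and the others carry progenitors differentiated in culture and primary hepatocytes. All 17 came from Foxl1-Cre mice crossed with Rosa26 yellow fluorescent protein reporter mice, from offspring of 6 to 10 weeks. In these animals the promoter of Foxl1, a forkhead transcription factor gene, drives Cre, and the reporter stays on in a cell that once used it and in its descendants. The labels name no treatment for either group. They give sorted cells and liver samples as sources of RNA and do not say by which gate the primary cholangiocytes were taken, whether the progenitors were in culture before RNA was made, or whether arrays of a group came from separate animals or cultures. The p-values therefore measure only the spread between these samples.

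Cholangiocytes form a polarised tube: claudins and other tight junction proteins seal the cells together, and channels, exchangers and water pores at their apical face modify bile. They are usually recognised by keratin 7 and keratin 19, and they secrete mucins and defence proteins into the duct. Liver progenitors share much of this biliary keratin program and, in part, the plasma proteins of hepatocytes.

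Each value is a log2 intensity from which the log2 of its array's 75th percentile was taken. That percentile was 2847 and 2684 intensity units in primary cholangiocytes, against 2098 to 2530 in undifferentiated progenitors. Between 26808 and 29256 probes were well above background on the primary cholangiocyte arrays, against 25320 to 28996 on the undifferentiated arrays. The arrays of primary cholangiocytes correlated across genes at r = 0.947, pairs of undifferentiated arrays at 0.963 to 0.975, and arrays of different groups at 0.909 to 0.924. A difference is the mean of primary cholangiocytes minus that of undifferentiated progenitors, ± its standard error (SE) from a limma fit to all 17 arrays, and passing means a limma p under 0.05 once adjusted (Benjamini-Hochberg) over the 25969 genes tested. In all, 2208 genes (8.5%) were higher and 2729 genes (10.5%) lower in primary cholangiocytes, 19% in all, and 1860 (7.16%) and 1817 (7%) of them differed by at least 2-fold. An unadjusted p under 0.05 was found for 8083 genes (31.1%), and on 16.2% and 19.2% of genes both primary arrays were above or below all progenitor arrays. With arrays scaled to their median, every difference shifted down by the same amount, the median over all genes was -0.24 instead of 0.01, and 1492 genes were higher and 3045 lower. A fit to the 6 arrays alone, with less information on the spread, called 872 genes higher and 752 lower. Of the 4937 genes that passed, 1845 also passed without each array in turn.

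**Figure D1:**
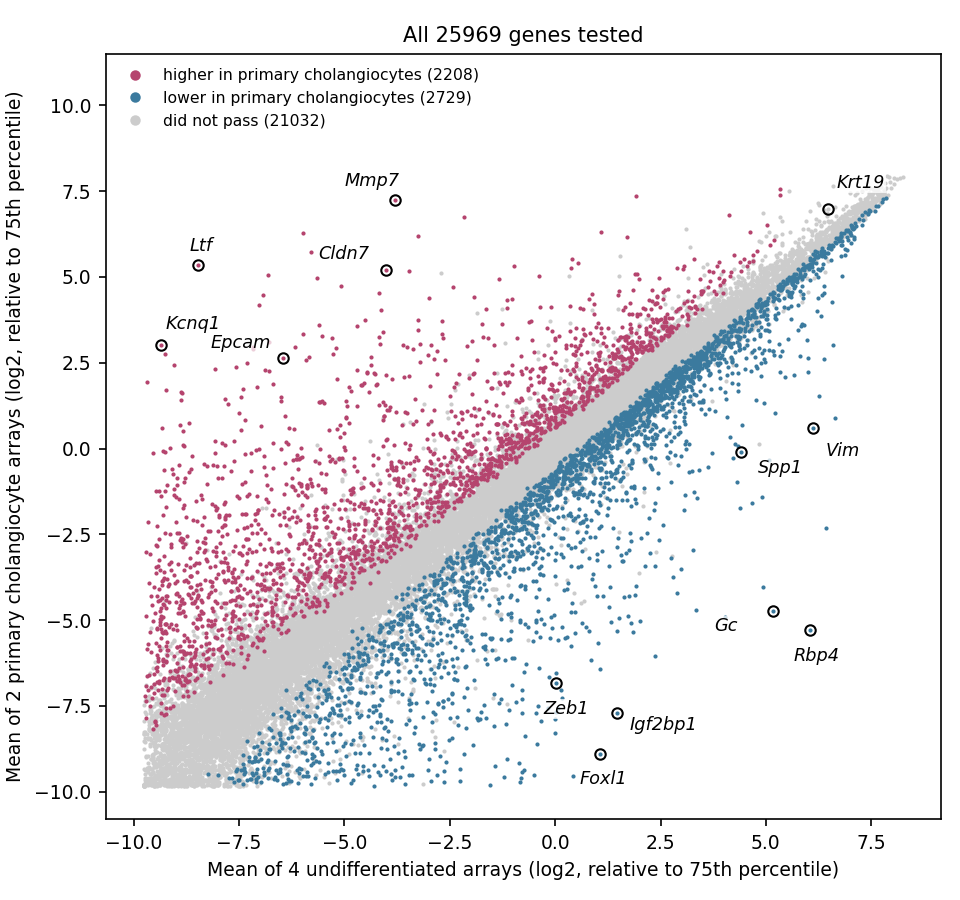
Mean log2 intensity over the array's 75th percentile of the 2 primary cholangiocyte arrays (vertical axis) against that of the 4 undifferentiated arrays (horizontal axis), 1 point for each of 25969 genes. The 2208 genes that were higher in primary cholangiocytes lie mostly above the grey points and the 2729 that were lower mostly under them, with Mmp7, Ltf, Kcnq1, Rbp4 and Foxl1 far out and Krt19 among the grey points.

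The array reads a gene through short DNA probes. The probe of Mmp7 (array design chromosome 9) and both probes of Sftpd (array design chromosome 14) are shown, 5′ to 3′, because these genes gave some of the widest gaps between the groups and because the Sftpd probes read separate stretches of the transcript. The genome build of the design is not given in the sources used here, so no coordinates are given, and no letters are set in capitals.
Mmp7: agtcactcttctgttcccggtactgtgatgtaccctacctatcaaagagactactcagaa
Sftpd, probe that stands for the gene: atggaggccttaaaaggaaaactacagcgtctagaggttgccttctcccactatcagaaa
Sftpd, other probe: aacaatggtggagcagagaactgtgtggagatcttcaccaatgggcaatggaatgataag

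Mmp7, Sftpd and Cldn7 were far higher in primary cholangiocytes, and Rbp4 was far lower, with no overlap between the groups. Mmp7 encodes matrilysin, a secreted metalloproteinase of epithelia. Its level was 7.76 and 6.74 in primary cholangiocytes, against -3.05, -3.65, -3.09 and -5.4 in undifferentiated progenitors. The difference was 11.05 ± 0.96 (adjusted p = 3.47e-06). Both primary arrays thus stood well over their 75th percentile and every progenitor array well under its own. Sftpd encodes surfactant protein D, a collectin that binds microbial sugars. It read 4.73 and 5.24 in primary cholangiocytes, against -4.6, -5.9, -5.48 and -6.65 in undifferentiated progenitors, a difference of 10.64 ± 0.68 (adjusted p = 1.99e-07). The other Sftpd probe printed above gave 6.56 and 6.86 in primary cholangiocytes, against -9.16, -6.41, -3.72 and -9.55 in undifferentiated progenitors, a difference of 13.92 ± 1.70. The progenitor arrays were spread over almost 6 log2 units on that probe and close together on the first, and the primary arrays were high on both. Cldn7, a claudin of tight junctions, was at 5.18 and 5.24 in primary cholangiocytes, against -3.91, -3.45, -4.04 and -4.69 in undifferentiated progenitors, and differed by 9.23 ± 0.29 (adjusted p = 5.17e-10). Rbp4, the plasma carrier of retinol made by hepatocytes, ran the other way. It was at -4.8 and -5.77 in primary cholangiocytes, against 6.8, 5.24, 6.01 and 6.17 in undifferentiated progenitors, a difference of -11.34 ± 0.38 (adjusted p = 5.27e-10). In bulk RNA such as this, fewer cells of a type and less RNA per cell cannot be told apart.

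Several genes by which bile duct cells are recognised did not pass, among them the keratins Krt7 and Krt19, which were high in both groups. Krt19 was at 7.3 and 6.69 in primary cholangiocytes, against 6.81, 6.41, 7.04 and 5.67 in undifferentiated progenitors, and the groups overlapped (difference 0.51 ± 0.62, adjusted p = 0.632). Krt7 was at 5.5 and 5.47 in primary cholangiocytes, against 4.54, 5.18, 4.65 and 4.39 in undifferentiated progenitors. The groups did not overlap for Krt7, but the difference of 0.79 ± 0.41 (adjusted p = 0.204) did not pass. Krt8 and Krt18, the keratin pair of simple epithelia, differed by 0.4 ± 0.22 (adjusted p = 0.228) and 0.08 ± 0.17 (adjusted p = 0.813), and Krt8 passed only with quantile normalization (adjusted p = 0.0276). Cftr, the chloride channel of duct cells, spread over almost 5 log2 units among the progenitors, with -2.59 and -3.62 in primary cholangiocytes, against -1.86, -6.65, -5.72 and -1.63 in undifferentiated progenitors. Sctr, the secretin receptor, differed by 0.72 ± 0.46 (adjusted p = 0.321), while 1 of its 3 dimmer probes passed (2.69 ± 0.68) and the mean of its probes did too (1.87, adjusted p = 0.0191). Wfdc2, a secreted protease inhibitor of ducts, was high in both groups, at 7.13 and 7.04 in primary cholangiocytes and 6.44, 6.33, 7.23 and 5.0 in undifferentiated progenitors. Of the 20 cholangiocyte markers 7 were higher, 3 lower and 10 did not pass, with a median difference of 0.82. Each of the 20 was well above background on at least 1 array in each group. Their summed level, as a multiple of the 75th percentile, was 679.8 to 689.0 in primary cholangiocytes. It was 452.4 to 570.7 in undifferentiated progenitors and 126.6 to 140.0 in primary hepatocytes. That sum follows the brightest members, among them Krt18 and Krt19, which did not pass. Krt18 was at 7.81 and 8.10 in primary cholangiocytes and at 6.64, 6.27, 6.42 and 6.53 in primary hepatocytes. Krt7, Krt19 and Wfdc2 were thus high on both primary arrays, as the label of the cells would have it, and none of the 3 passed against the progenitors. In the authors' deposited table Krt7 has a 2.075-fold difference with a false discovery rate of 4.96%.

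Epcam, Spp1, Sox9 and Pkhd1 divided the groups although all are used as duct or progenitor markers. Epcam, an adhesion protein of epithelia, was at 3.06 and 2.22 in primary cholangiocytes, against -6.49, -6.45, -5.58 and -7.35 in undifferentiated progenitors, where 3 of the 4 arrays were above background. Its difference was 9.11 ± 0.88 (adjusted p = 9.36e-06). Spp1, which encodes the matrix protein osteopontin, was lower, at 0.33 and -0.55 in primary cholangiocytes, against 4.6, 4.54, 3.87 and 4.65 in undifferentiated progenitors, a difference of -4.52 ± 0.54 (adjusted p = 6.11e-05). Pkhd1, the ciliary protein mutated in recessive polycystic disease, was lower, with a difference of -3.99 ± 0.53 (adjusted p = 0.000134). Sox9, a transcription factor of ducts and progenitors, was at -3.63 and -0.54 in primary cholangiocytes, against 0.06, 1.04, 0.56 and 0.01 in undifferentiated progenitors. Its call (-2.5 ± 0.67, adjusted p = 0.0184) rested on primary array 3, since the adjusted p was 0.333 without that array and 0.154 in the fit to the 6 arrays alone. Foxl1 itself was not well above background on either primary array and was above it on every progenitor array, at -1.54, 1.05, 2.23 and 2.56, which made it at least 383-fold lower in primary cholangiocytes (adjusted p = 0.00066). Such a bound sets each array of the dim group at the lowest signal well above background on that array, or at the probe's own signal where that is higher. These bounds hold for the processed signal. With normexp background correction, which adds an offset of 50 to each signal, the fitted differences of all 20 genes with a bound were smaller than their bounds, for Foxl1 -6.01 against a bound of -8.58 on the log2 scale.

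**Figure D2:**
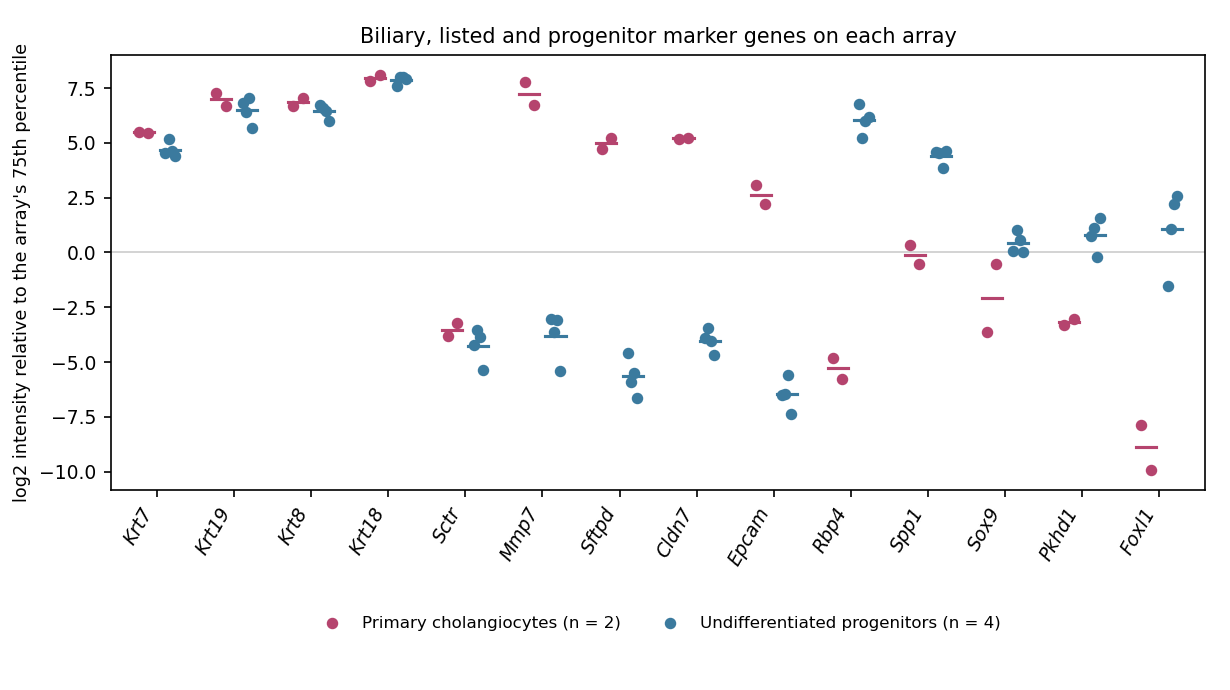
Log2 intensity over the array's 75th percentile (vertical axis) of 14 marker genes on the 2 primary cholangiocyte arrays (left points of each pair) and the 4 undifferentiated arrays (right points), with the group means as lines. The keratins and Sctr overlap or nearly meet between the groups, while Mmp7, Sftpd, Cldn7 and Epcam are higher in primary cholangiocytes and Rbp4, Spp1, Pkhd1 and Foxl1 are higher in undifferentiated progenitors.

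Genes of the epithelial junction were higher more often than lower. Of 46 junction genes tested (47 listed) 17 were higher in primary cholangiocytes (37%), 2 lower and 27 did not pass, with a median difference of 0.83. Without primary array 3 or primary array 4 the number higher was 13 or 16, and in the fit to the 6 arrays alone it was 9. Cldn4, a claudin that limits sodium passage, was at 1.53 and 2.89 in primary cholangiocytes, against -5.9, -4.85, -1.99 and -5.13 in undifferentiated progenitors, a difference of 6.68 ± 1.17 (adjusted p = 0.00127). Cldn3 was at 4.03 and 4.62 in primary cholangiocytes, against -0.43, -1.25, -3.64 and 0.79 in undifferentiated progenitors, a difference of 5.46 ± 0.91 (adjusted p = 0.000906), with an adjusted p of 0.0548 in the fit to the 6 arrays. Both claudins were higher on every primary array than on any progenitor array. Dsc2, a desmosomal cadherin, differed by 6.56 ± 0.99 (adjusted p = 0.0004). Cdh1, the epithelial cadherin E-cadherin, was at 4.53 and 4.61 in primary cholangiocytes, against 3.66, 3.18, 3.96 and 3.15 in undifferentiated progenitors, so it was present in both, and its small difference of 1.08 ± 0.32 (adjusted p = 0.0293) lost its call in 8 alternatives, without either primary array among them (adjusted p = 0.11 and 0.117). Perp, a desmosome protein, differed by -0.81 ± 0.32 (adjusted p = 0.0936) and passed as lower with median scaling (adjusted p = 0.0405) and without undifferentiated array 4 (0.0254).

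Several transcription and splicing regulators of epithelia were higher too. Grhl2, a grainyhead factor that sets up epithelial junctions, was at 1.71 and 1.27 in primary cholangiocytes, against -6.66, -6.57, -5.58 and -7.24 in undifferentiated progenitors, a difference of 8.0 ± 0.51 (adjusted p = 1.99e-07). Ehf, an Ets factor of epithelia, was at 3.33 and 3.32 in primary cholangiocytes, against -3.7, -1.73, -1.25 and -4.03 in undifferentiated progenitors, a difference of 6.0 ± 1.32 (adjusted p = 0.00573). For both genes the groups did not overlap. Esrp1, a splicing regulator that gives epithelial isoforms, was at 1.92 and 2.13 in primary cholangiocytes, against -3.77, -3.51, -3.41 and -4.84 in undifferentiated progenitors, a difference of 5.91 ± 0.44 (adjusted p = 7.76e-07). Elf3, another epithelial Ets factor, differed by 4.46 ± 0.89 (adjusted p = 0.00323) and lost its call without primary array 3 (adjusted p = 0.0648). Sox17, an endoderm factor known for its part in the bile duct, was at 3.47 and 3.34 in primary cholangiocytes, against -3.5, -5.3, -5.8 and -1.79 in undifferentiated progenitors, a difference of 7.5 ± 0.95 (adjusted p = 9.75e-05). Among 19 keratins 4 were higher (21.1%) and 2 lower (10.5%), against 8.5% and 10.5% of all genes tested. Krt23 and Krt6a differed by 5.65 ± 1.55 and 7.63 ± 1.76, and Krt20 by -2.76 ± 0.82 (adjusted p = 0.0204, 0.00789 and 0.0296). Krt6a was well above background on 2 of the 4 progenitor arrays, and its difference was 4.57 with normexp background correction. Without primary array 3 the adjusted p of Krt23 was 0.166, and without primary array 4 those of Krt6a and Krt20 were 0.0656 and 0.292.

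Repressors of epithelial genes and a mesenchymal cadherin were lower in primary cholangiocytes. Zeb1, a repressor of epithelial genes, was at -7.32 and -6.35 in primary cholangiocytes, against 0.09, -0.17, -0.25 and 0.44 in undifferentiated progenitors, a difference of -6.86 ± 0.3 (adjusted p = 6.26e-09). Zeb2, its relative, was at -8.62 and -9.87 in primary cholangiocytes, against -1.79, -1.1, -2.01 and -0.8 in undifferentiated progenitors, a difference of -7.82 ± 0.73 (adjusted p = 6.62e-06). A dimmer Zeb2 probe differed by -2.32 ± 1.20 and did not pass (adjusted p = 0.206). Snai2, a further repressor of this kind, was at -6.9 and -4.13 in primary cholangiocytes, against -0.7, 0.42, -0.63 and 0.43 in undifferentiated progenitors, a difference of -5.4 ± 0.73 (adjusted p = 0.000156). All 3 repressors were near background in primary cholangiocytes, with 1 of the 2 arrays above it for each. For Zeb2 that count takes in both probes. The dimmer probe read -4.44 and -9.94 in primary cholangiocytes, against -5.92, -4.75, -4.18 and -4.64 in undifferentiated progenitors. Cdh2, the cadherin N-cadherin, was at -3.76 and 0.94 in primary cholangiocytes, against 4.36, 4.58, 5.08 and 5.6 in undifferentiated progenitors, a difference of -6.32 ± 0.84 (adjusted p = 0.00014).

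The repressors Zeb1, Zeb2 and Snai2 bind the E-box letters CACCTG, or CAGGTG read from the other strand, so the 250 bases before the transcription start of junction genes were searched for either on both strands. The pair of letter strings is each other's reverse complement, and no other motif was searched. Of the 17 junction genes that were higher in primary cholangiocytes 9 had a promoter in the RefSeq table (GRCm38.p6), and 7 of these held at least 1 match (77.8%), against 4 of 19 that did not pass (21.1%), 0 of 1 that was lower and 5252 of 27025 genes in that table (19.4%). A gene counted if any of its starts held a match, and the starts averaged 1.56 a gene among those higher, against 1.47 among those that did not pass and 1.22 in the table. Over genes with 1 start, a count added after seeing the data, 3 of 4 that were higher held a match, against 3 of 13 that did not pass and 17.1% of the table. The match is a count of letters and no evidence of binding. The junction genes were grouped by the same comparison, and those without a promoter in that table were left out. Whether the repressors act on these genes was not tested. The promoters of Crb3, a polarity protein at the apical edge, and of Cldn7 are shown because they held 3 and 2 matches. Capitals mark the matches. Both lie on the plus strand, at chr17:57061951-57062200 for Crb3 and chr11:69965171-69965420 for Cldn7, the start with most matches where a gene has several.
Crb3: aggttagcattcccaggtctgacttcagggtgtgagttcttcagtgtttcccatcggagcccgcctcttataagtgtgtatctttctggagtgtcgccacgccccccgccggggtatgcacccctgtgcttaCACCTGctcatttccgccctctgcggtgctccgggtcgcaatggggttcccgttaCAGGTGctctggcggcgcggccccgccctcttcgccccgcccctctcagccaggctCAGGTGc
Cldn7: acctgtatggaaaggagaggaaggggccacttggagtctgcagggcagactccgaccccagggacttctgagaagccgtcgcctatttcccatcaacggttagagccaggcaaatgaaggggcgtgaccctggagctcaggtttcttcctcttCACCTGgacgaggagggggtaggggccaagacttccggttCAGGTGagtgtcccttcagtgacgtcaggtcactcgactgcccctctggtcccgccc
Crb3 was at 0.81 and 0.88 in primary cholangiocytes, against -2.29, -2.58, -1.96 and -2.0 in undifferentiated progenitors, a difference of 3.05 ± 0.31 (adjusted p = 1.36e-05), and Cldn7 values stand above. The matches begin at positions -118, -63 and -7 from the start of Crb3 and at -97 and -57 from that of Cldn7.

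Vim, Axl and Lgals1 were lower in primary cholangiocytes on average, and the primary arrays were far apart. Vim, the intermediate filament vimentin, was at -2.01 and 3.17 in primary cholangiocytes, against 6.08, 6.27, 6.22 and 5.89 in undifferentiated progenitors, a difference of -5.53 ± 0.92 (adjusted p = 0.000892). Axl, a receptor tyrosine kinase, was at -4.3 and 0.85 in primary cholangiocytes, against 3.97, 4.29, 4.31 and 5.02 in undifferentiated progenitors, a difference of -6.12 ± 1.0 (adjusted p = 0.000743). Lgals1, which encodes galectin 1, was at -0.82 and 3.9 in primary cholangiocytes, against 6.07, 6.09, 6.01 and 6.87 in undifferentiated progenitors, a difference of -4.71 ± 0.84 (adjusted p = 0.00138). Array 4 lay about 5 log2 units closer to the progenitors than array 3 for each, and in the fit to the 6 arrays alone the adjusted p values of Vim, Axl and Lgals1 were 0.0709, 0.0563 and 0.0864. S100a4, a calcium-binding protein of motile cells, was close on both arrays, at -2.62 and -2.3 in primary cholangiocytes, against 2.07, 2.15, 3.22 and 1.26 in undifferentiated progenitors, a difference of -4.63 ± 0.48 (adjusted p = 1.71e-05). Of 37 integrin and motility genes tested (38 listed) 1 was higher, 11 lower and 25 did not pass (median -0.31). The 1 member that was higher was Tpm2, a tropomyosin, by 3.56 ± 0.55 (adjusted p = 0.000469).

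**Figure D3:**
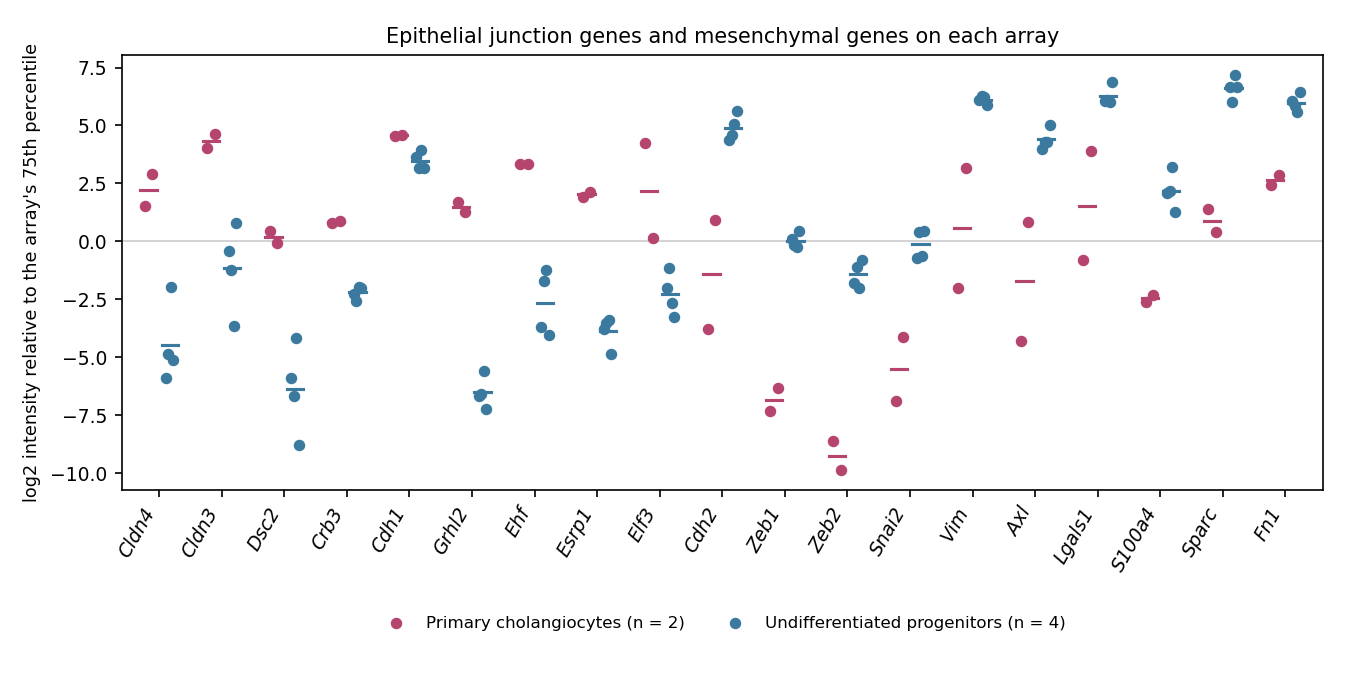
Log2 intensity over the array's 75th percentile (vertical axis) of 19 genes on the 2 primary cholangiocyte arrays (left points of each pair) and the 4 undifferentiated arrays (right points), with the group means as lines. From Cldn4 to Elf3 the primary cholangiocytes are higher, from Cdh2 to Fn1 they are lower, and the primary arrays are far apart for Elf3, Cdh2, Vim, Axl and Lgals1.

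Matrix genes and matrix proteases were mixed. Of 37 matrix genes tested (40 listed) 6 were higher, 11 lower and 20 did not pass, with a median of -0.08 (0.33 without primary array 3), and without primary array 3 the counts were 2 higher and 8 lower. Sparc, a collagen-binding matrix protein, was at 1.39 and 0.39 in primary cholangiocytes, against 6.68, 6.01, 7.18 and 6.67 in undifferentiated progenitors, a difference of -5.74 ± 0.48 (adjusted p = 2.53e-06). Fn1, which encodes fibronectin, was at 2.44 and 2.85 in primary cholangiocytes, against 6.06, 5.85, 5.58 and 6.46 in undifferentiated progenitors, a difference of -3.34 ± 0.24 (adjusted p = 5.2e-07). Both were lower with no overlap. Nid1, a basement membrane linker, and Col12a1, a fibril-associated collagen, were lower, with differences of -3.72 ± 0.61 (adjusted p = 0.000728) and -4.83 ± 0.65 (adjusted p = 0.000154). Among the 6 matrix genes that were higher were Col5a3, Col5a1, Lama3, Lama1 and Fbn1. Of 31 proteases and inhibitors tested (32 listed) 7 were higher and 8 lower (median 0.51), and the number lower was 3 without primary array 3. The inhibitors of metalloproteinases divided: Timp3 was higher by 4.9 ± 0.83 (adjusted p = 0.00095) and Timp1 lower, with a difference of -2.32 ± 0.33 (adjusted p = 0.000218). Mmp13, a collagenase, was lower, with a difference of -6.54 ± 1.21 (adjusted p = 0.00189), while Mmp15, a membrane-bound metalloproteinase, and Prss22, a tryptase-like serine protease, were higher by 4.02 ± 0.64 (adjusted p = 0.00065) and 5.01 ± 0.52 (adjusted p = 1.87e-05). Mmp7, described above, belongs to the same list.

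Many genes of mucosal defence and secretion were higher. Of 37 tested (40 listed) 16 were higher (43.2%), 4 lower and 17 did not pass, with a median of 2.04, or 1.56 with genes under background at their bounds. The number higher was 7 without primary array 3 and 18 without primary array 4. Ltf, the iron-binding antimicrobial protein lactoferrin, was at 7.35 and 3.34 in primary cholangiocytes and was not well above background on any of the 4 progenitor arrays. It was at least 6754-fold higher in primary cholangiocytes (adjusted p = 1.19e-06). Muc1, a membrane mucin, was at 4.04 and 1.9 in primary cholangiocytes, against -6.17, -6.05, -6.54 and -5.91 in undifferentiated progenitors, a difference of 9.14 ± 0.71 (adjusted p = 1.19e-06). Slpi, an inhibitor of leukocyte elastase, was at 3.85 and 6.01 in primary cholangiocytes, against -1.07, -0.51, -0.7 and -3.02 in undifferentiated progenitors, a difference of 6.25 ± 0.75 (adjusted p = 5.9e-05). Lcn2, a siderophore-binding protein, differed by 5.21 ± 1.37 (adjusted p = 0.0163) and lost its call without either primary array (adjusted p = 0.0903 and 0.0669).

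Some mucosal genes were high on primary array 3 alone. Dmbt1, a scavenger protein of mucosal surfaces, was at 7.5 and -2.77 in primary cholangiocytes, against -7.27, -7.45, -6.18 and -9.35 in undifferentiated progenitors, a difference of 9.93 ± 2.6 (adjusted p = 0.016). Without primary array 3 its adjusted p was 0.279. Muc3, an intestinal-type membrane mucin, was at 4.36 and -6.82 in primary cholangiocytes and not well above background on any progenitor array, at least 74.2-fold higher (adjusted p = 0.0211, or 0.383 without primary array 3). Neither gene thus passed on array 4 alone. Among the 4 members that were lower stood Cxcl5, a neutrophil-attracting chemokine, at -0.95 and 0.27 in primary cholangiocytes, against 3.77, 4.81, 5.8 and 5.92 in undifferentiated progenitors, a difference of -5.42 ± 0.87 (adjusted p = 0.000651). Cp, the copper-carrying ferroxidase ceruloplasmin, was lower, with a difference of -2.34 ± 0.41 (adjusted p = 0.00134), with an adjusted p of 0.0786 in the fit to the 6 arrays.

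Channels, transporters and pumps of the duct wall were higher in part. Of 38 ductal transport genes tested (39 listed) 10 were higher (26.3%), 2 lower and 26 did not pass, with a median of 0.71, and 6 were higher in the fit to the 6 arrays alone. Kcnq1, the voltage-gated potassium channel, was at 3.59 and 2.46 in primary cholangiocytes and not above background on any progenitor array, at least 1420-fold higher (adjusted p = 0.000132), or 7.47 log2 units higher with normexp background correction. Its probe shares a run of 20 bases with a probe of 1 other gene. Kcne3, a subunit that holds Kcnq1 open in epithelia, was at 3.25 and 1.23 in primary cholangiocytes, against -4.64, -3.89, -4.23 and -5.14 in undifferentiated progenitors, a difference of 6.71 ± 1.11 (adjusted p = 0.000825). Both parts of that channel were thus higher. Scnn1a, the alpha subunit of the epithelial sodium channel, was at 3.69 and 3.47 in primary cholangiocytes, against -4.32, -4.74, -4.52 and -5.24 in undifferentiated progenitors, a difference of 8.29 ± 0.41 (adjusted p = 1.83e-08). Aqp5, a water channel of secretory glands, was at 6.85 and 5.51 in primary cholangiocytes, against -4.96, -2.34, -1.52 and -4.19 in undifferentiated progenitors, a difference of 9.44 ± 0.81 (adjusted p = 2.98e-06). Fxyd3, a regulator of the sodium pump, differed by 8.81 ± 0.71 (adjusted p = 1.72e-06). Aqp5 and Fxyd3 are not on the ductal transport list and were named for the size of their differences. The carbonic anhydrases Car9 and Car2 differed by 6.99 ± 0.96 (adjusted p = 0.000175) and 3.81 ± 0.71 (adjusted p = 0.00183), and Car2 had an adjusted p of 0.057 in the fit to the 6 arrays. Slc10a2, the apical bile acid carrier, and Abcc1, an efflux pump, were lower, with differences of -2.24 ± 0.63 (adjusted p = 0.0228) and -1.1 ± 0.28 (adjusted p = 0.0135), with adjusted p values of 0.278 and 0.208 without primary array 3.

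Other genes with very large differences did not belong to these groups either. Cers3, a ceramide synthase, Tmc4, a transmembrane channel-like protein, and Gpx2, a glutathione peroxidase of epithelia, were higher by 8.7 ± 0.94, 8.66 ± 0.3 and 8.28 ± 0.52 (adjusted p = 2.55e-05, 5.52e-10 and 1.64e-07). Tmc4 was at 5.38 and 4.98 in primary cholangiocytes, against -3.78, -3.59, -3.39 and -3.13 in undifferentiated progenitors. Wfdc1, a whey acidic protein family member, and Il17re, a receptor subunit for interleukin 17C, were higher by 8.19 ± 0.43 and 8.13 ± 1.12 (adjusted p = 3.23e-08 and 0.000183). All 5 were higher on both primary arrays than on any progenitor array. Tnk1, a non-receptor tyrosine kinase, Igfbpl1, related to the insulin-like growth factor binding proteins, and Ildr1, a protein of tricellular junctions, were not above background on any progenitor array and were at least 938-fold, 660-fold and 530-fold higher in primary cholangiocytes, and with normexp background correction they were higher by 6.85, 6.49 and 5.96 log2 units. In the other direction Lgals2, which encodes galectin 2, was lower, with a difference of -8.98 ± 1.2, Camk2b, a calcium-dependent kinase, with -7.21 ± 0.69, Pla1a, a phospholipase, with -7.09 ± 0.4, and Spon2, a matrix protein, with -7.02 ± 0.31. Their adjusted p values were 0.000147, 8.1e-06, 6.43e-08 and 6.26e-09. Lgals2 was at -1.34 and -6.75 in primary cholangiocytes, so that the arrays differed by over 5 log2 units, against 6.12, 4.06, 6.0 and 3.56 in undifferentiated progenitors.

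Plasma protein genes of hepatocytes were lower in primary cholangiocytes where they passed. Of 46 tested 9 were lower (19.6%) and 37 did not pass, with a median of -1.73. That median was -0.53 without undifferentiated array 1, -0.80 without array 2 and -0.77 with a replicate block, while without undifferentiated array 3 or 4 it was -2.28 or -2.53 and without primary array 3 or 4 -1.49 or -1.42. By limma 0 members were higher, also without either primary array and in the fit to the 6 arrays alone, and at an unadjusted p under 0.05 the counts were 1 higher and 13 lower. Gc, the vitamin D binding protein, was at -4.55 and -4.91 in primary cholangiocytes, against 4.85, 5.63, 5.08 and 5.15 in undifferentiated progenitors, a difference of -9.91 ± 0.74 (adjusted p = 8.16e-07). Apob, the apolipoprotein of very low density lipoprotein, was at -4.39 and -5.45 in primary cholangiocytes, against 4.18, 4.41, 3.86 and 3.67 in undifferentiated progenitors, a difference of -8.95 ± 0.41 (adjusted p = 9.14e-09). Trf, which encodes transferrin, was at -1.52 and -3.14 in primary cholangiocytes, against 7.11, 7.23, 5.69 and 5.7 in undifferentiated progenitors, a difference of -8.76 ± 0.56 (adjusted p = 1.99e-07). All 3 genes were high on every progenitor array and low on both primary arrays. Hp, the haemoglobin-binding haptoglobin, was at -4.34 and -5.09 in primary cholangiocytes, against 6.01, 3.24, 2.71 and 1.37 in undifferentiated progenitors, a difference of -8.05 ± 1.39 (adjusted p = 0.0011). Hpx, the haem-binding hemopexin, differed by -6.9 ± 1.48 (adjusted p = 0.00491), with an adjusted p of 0.0516 in the fit to the 6 arrays alone. Alb, which encodes serum albumin, ranged widely, at -4.93 and -9.64 in primary cholangiocytes and 6.01, 1.26, -4.44 and -8.74 in undifferentiated progenitors, and its difference of -5.81 ± 3.97 did not pass (adjusted p = 0.36). Afp, the fetal albumin-like protein, did not pass either (-1.42 ± 1.99, adjusted p = 0.684). The summed level of the list was 224.7 to 240.8 in primary cholangiocytes, against 367.7 to 696.1 in undifferentiated progenitors and 13130 to 18750 in primary hepatocytes. F10, among the brightest members that did not pass, has a probe that shares a run of 20 bases with probes of 8 other genes. The part of that probe in the sum was not tested.

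Of 46 enzyme genes of hepatocyte metabolism tested (48 listed) 1 was higher, 1 lower and 44 did not pass, with a median of 0.16. The member that was higher was Cyp2f2, a cytochrome P450 also known from airway club cells, at 1.46 and -0.44 in primary cholangiocytes and not above background on any progenitor array, at least 247-fold higher (adjusted p = 0.00931, or 0.0851 without primary array 3). Of 33 liver and biliary transcription factor genes tested (34 listed) 8 were higher (24.2%) and 5 lower (15.2%), with a median of 0.08. Hnf4a, the central factor of the hepatocyte program, was at 3.94 and 1.42 in primary cholangiocytes, against 5.61, 5.45, 5.43 and 4.84 in undifferentiated progenitors, a difference of -2.65 ± 0.55 (adjusted p = 0.00388). It lost its call without primary array 4 (adjusted p = 0.0643) and in the fit to the 6 arrays (0.0883). Nr1h4, the bile acid receptor FXR, was lower, with a difference of -4.79 ± 0.81 (adjusted p = 0.000926), or an adjusted p of 0.0682 in the fit to the 6 arrays. Aldh1a1, which makes retinoic acid, was at 2.12 and 2.33 in primary cholangiocytes, against 5.51, 5.34, 5.11 and 5.37 in undifferentiated progenitors, a difference of -3.11 ± 0.37 (adjusted p = 5.5e-05). Of 25 retinoid genes tested (26 listed) 2 were higher (8%) and 4 lower (16%), against 8.5% and 10.5% of all genes tested. Their median was -0.12, or 0.22 without undifferentiated array 1. The 2 retinoid genes that were higher were Aldh1a3 and Rdh10, and the 4 that were lower were Rbp4, Aldh1a1, Rxra and Rara.

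Progenitor and fetal genes went both ways, with 6 of 34 higher, 7 lower and a median of -0.43. That median was 0.17 without undifferentiated array 1, 0.07 with the mean of a gene's probes and 0.67 where only probes above background on every array of a compared group were kept. Igf2bp1, a fetal RNA-binding protein, was at -9.11 and -6.3 in primary cholangiocytes, against 1.46, 1.57, 1.55 and 1.3 in undifferentiated progenitors, a difference of -9.18 ± 0.61 (adjusted p = 2.75e-07). Hmga2, a fetal chromatin protein, was at -0.56 and 0.81 in primary cholangiocytes, against 4.2, 4.4, 3.84 and 4.67 in undifferentiated progenitors, a difference of -4.16 ± 0.58 (adjusted p = 0.000218). The progenitor arrays were close to each other for both. Ncam1, a neural adhesion molecule also seen in reactive ductules, was lower, with a difference of -3.17 ± 0.58 (adjusted p = 0.00167), and 1 of its 3 probes did not pass (-1.2 ± 1.02). Lgr5, a Wnt-linked receptor, was at least 2.21-fold lower, near background in both groups (adjusted p = 0.0105, or 0.141 with normexp background correction). Kit, the stem cell factor receptor, was at 1.99 and -0.53 in primary cholangiocytes and not above background on any progenitor array, at least 289-fold higher (adjusted p = 4.69e-06). Some further genes were above background on all 4 progenitor arrays and on neither primary array. Of these the transcription factor genes Ebf3, Hoxb13 and Foxf2 were at least 243-fold, 108-fold and 106-fold lower in primary cholangiocytes, Trpa1, an irritant-gated ion channel, at least 178-fold, and Lect2, a liver-secreted chemotactic protein, at least 166-fold. Ebf3 was at -0.1, -0.23, 0.71 and 1.3 and Foxf2 at -1.1, -0.81, -0.35 and -0.84 in undifferentiated progenitors.

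Genes of cell division that passed were all lower in primary cholangiocytes. Of 55 mitosis genes 11 were lower by limma, 0 were higher and 44 did not pass (24 lower and 0 higher at an unadjusted p under 0.05), with a median of -1.03, and 39 were lower on both primary arrays than on any progenitor array, against 19.2% of all genes. The number lower was 10 without primary array 3, 1 without primary array 4 and 3 in the fit to the 6 arrays alone, and the list's median difference was -0.65 on array 3 and -1.28 on array 4. Mki67, the proliferation antigen Ki-67, was at 2.78 and 0.59 in primary cholangiocytes, against 2.84, 2.55, 2.69 and 3.47 in undifferentiated progenitors, and its difference of -1.2 ± 0.72 did not pass (adjusted p = 0.291). Pttg1, the securin that guards chromatid separation, was at 2.18 and 1.91 in primary cholangiocytes, against 3.57, 3.77, 4.26 and 4.05 in undifferentiated progenitors, a difference of -1.87 ± 0.22 (adjusted p = 5.31e-05). Of 55 DNA replication genes 11 were lower and 0 higher by limma (median -0.59), or 24 and 2 at an unadjusted p under 0.05, and 7 were lower without either primary array. Gins1, a part of the replicative helicase, and Mcm6, another, were lower, with differences of -1.83 ± 0.21 (adjusted p = 4.19e-05) and -1.48 ± 0.3 (adjusted p = 0.00365).

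**Figure D4:**
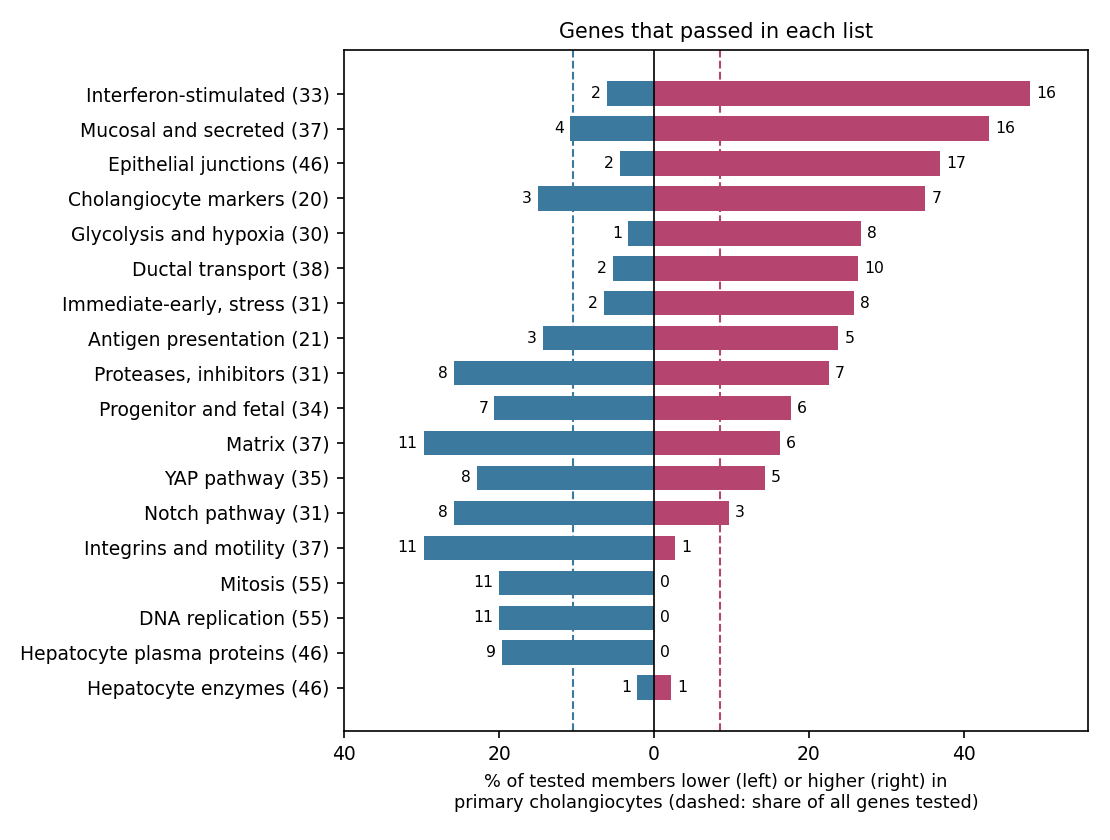
Share of the tested members of 18 gene lists that were lower (left bars) or higher (right bars) in primary cholangiocytes, in percent, with the number of genes at the end of each bar and the number tested in parentheses. The dashed lines mark the share over all genes tested, 8.5% higher and 10.5% lower, and the interferon, mucosal and junction lists reach farthest to the right.

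The medians of the protease, Notch, growth factor, hepatocyte enzyme, liver factor, leukocyte, stellate, red blood cell and neural lists turned negative with normexp background correction, and those of the cilium, YAP, growth factor, hepatocyte enzyme and liver factor lists with median scaling. Leaving out single arrays also turned medians. The retinoid median was 0.22 without undifferentiated array 1 and 0.08 without array 2, and 0.13 with the stricter filter on dim probes. The matrix median was 0.07 and 0.25 without those 2 arrays, and the amino acid stress median was 0.33 without primary array 3, against -0.26 with it. Without primary array 4 the YAP, leukocyte and red blood cell medians were -0.12, -0.09 and -0.36. The hepatocyte enzyme median was -0.10 without primary array 3, and that of liver factors was -0.41. The endothelial median was 0.07 with a slide block, and the cholesterol and liver factor medians, -0.01 and 0.08, changed sign in 6 and 7 alternatives. The medians of the junction, mucosal, transport, interferon, mitosis, replication and plasma protein lists kept their sign in every alternative fit.

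Of 31 Notch pathway genes tested (32 listed) 8 were lower and 3 higher, while the median was 0.34. Jag1, a ligand that drives duct formation, was at -0.62 and -0.23 in primary cholangiocytes, against 1.21, 2.08, 1.9 and 2.06 in undifferentiated progenitors, a difference of -2.24 ± 0.4 (adjusted p = 0.00138). Nrarp, a feedback inhibitor and target of Notch, was at -6.83 and -5.92 in primary cholangiocytes, against -3.23, -2.39, -2.76 and -2.18 in undifferentiated progenitors, a difference of -3.73 ± 0.35 (adjusted p = 6.55e-06). Both were lower with no overlap. Dtx4, a Deltex ubiquitin ligase, and the receptor gene Notch2 were lower, with differences of -2.74 ± 0.35 (adjusted p = 0.000103) and -1.34 ± 0.2 (adjusted p = 0.000347), and a dimmer Notch2 probe did not pass (-0.44 ± 0.38). Another ligand gene, Dll1, was at -2.33 and -2.97 in primary cholangiocytes, against -7.55, -6.71, -6.56 and -8.5 in undifferentiated progenitors, a difference of 4.69 ± 0.46 (adjusted p = 1.04e-05). Dll1 was well above background on 2 of the 4 progenitor arrays, and with normexp background correction its difference was 1.82. Of 35 YAP pathway genes tested (37 listed) 5 were higher and 8 lower (median 0.15). Ccn2, a common target of YAP, was high in both groups and differed by -0.45 ± 0.6 (adjusted p = 0.666). F3, which encodes tissue factor, differed by 2.46 ± 0.59 (adjusted p = 0.00924) and lost its call without primary array 4 (adjusted p = 0.166). Of 38 growth factor ligand and receptor genes tested (40 listed) 4 were higher and 5 lower, and Mst1r, the receptor for macrophage stimulating protein, was higher by 4.81 ± 1.0 (adjusted p = 0.00404), with an adjusted p of 0.0799 without primary array 3. Of 42 genes of the primary cilium, which senses bile flow, 3 were higher (7.14%) and 4 lower (9.52%). The shares were 10.5% and 13.2% in the growth factor list and 8.5% and 10.5% over all genes tested. Tctn1, a transition zone protein, was higher by 2.19 ± 0.37 (adjusted p = 0.000883).

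Interferon-stimulated genes were higher in 16 of 33 (48.5%) and lower in 2, with a median of 1.19. The number higher was 7 without primary array 3, 16 without primary array 4 and 6 in the fit to the 6 arrays alone. Oas1a, an enzyme that senses double-stranded RNA, was at 3.53 and 2.43 in primary cholangiocytes, against -2.69, -0.87, -1.41 and -3.4 in undifferentiated progenitors, a difference of 5.07 ± 0.68 (adjusted p = 0.000146). Rsad2, the antiviral protein viperin, was at -2.07 and -1.77 in primary cholangiocytes, against -6.56, -5.56, -7.52 and -9.73 in undifferentiated progenitors, a difference of 5.43 ± 0.91 (adjusted p = 0.00095). Both were higher with no overlap. Ifi44, another antiviral gene, was higher by 4.95 ± 0.67 (adjusted p = 0.000166). Not all members went this way: Irgm1, a GTPase induced by interferon gamma, was at 0.74 and 0.71 in primary cholangiocytes, against 3.48, 3.06, 2.73 and 3.08 in undifferentiated progenitors, a difference of -2.36 ± 0.34 (adjusted p = 0.000298). Ifit2 was lower, with a difference of -3.08 ± 0.59 (adjusted p = 0.00238), with an adjusted p of 0.0988 in the fit to the 6 arrays alone. Of 21 antigen presentation genes 5 were higher and 3 lower (median 0.65). H2-Ab1, a class II chain, was higher by 5.17 ± 1.05 (adjusted p = 0.00348), with an adjusted p of 0.0847 in the fit to the 6 arrays. It was well above background on 2 of the 4 progenitor arrays, and its difference was 1.91 with normexp background correction. Cd1d1, which presents lipids, was at -3.42 and -3.41 in primary cholangiocytes, against 0.85, 0.87, 0.12 and 0.59 in undifferentiated progenitors, a difference of -4.02 ± 0.35 (adjusted p = 3.7e-06). B2m, the light chain of class I molecules and of Cd1d1, was lower, with a difference of -0.96 ± 0.25 (adjusted p = 0.0145) and lost its call without primary array 3 (adjusted p = 0.208).

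Of 31 immediate-early and stress genes tested (34 listed) 8 were higher and 2 lower (median 0.68), and 5 were higher without primary array 3. Fos, a subunit of the AP-1 factor, was at 4.59 and 1.33 in primary cholangiocytes, against -4.26, -3.24, -3.14 and -3.41 in undifferentiated progenitors, a difference of 6.47 ± 1.11 (adjusted p = 0.00107). Atf3, a stress-induced factor, was higher by 2.69 ± 0.64 (adjusted p = 0.0092) and lost its call without primary array 3 (adjusted p = 0.173). Fosl1, another AP-1 subunit, was lower, with a difference of -2.94 ± 0.49 (adjusted p = 0.000915), and so was Socs3, the feedback inhibitor of cytokine signals, with -2.16 ± 0.47 (adjusted p = 0.00574), whose adjusted p was 0.082 without primary array 4. Of 30 genes of glycolysis and the response to low oxygen 8 were higher and 1 lower (median 0.68). Slc16a3, a lactate exporter, was at 3.44 and 2.61 in primary cholangiocytes, against -1.75, -1.29, -0.99 and -1.75 in undifferentiated progenitors, a difference of 4.47 ± 0.71 (adjusted p = 0.000639). Slc2a3, a glucose carrier, was not above background on any progenitor array and was at least 29.6-fold higher in primary cholangiocytes, or 1.82 log2 units higher with normexp background correction. Pfkfb3, which speeds glycolysis, and Vegfa, a growth factor of vessels, were higher by 2.75 ± 0.59 (adjusted p = 0.00493) and 2.26 ± 0.5 (adjusted p = 0.00632), and Vegfa lost its call without primary array 3 (adjusted p = 0.0739). Of 25 cholesterol genes 1 was lower (4%), and of 25 amino acid stress genes 3 were higher (12%) and 3 lower (12%). Over all genes tested the shares were 8.5% higher and 10.5% lower.

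Markers of other cell types were checked in both groups. Over all genes tested 8.5% were higher and 10.5% lower. Of 33 leukocyte and Kupffer cell genes tested (40 listed) 3 were higher (9.09%) and 1 lower (3.03%), with a median of 0.42. Their summed level was 45.8 to 46.4 in primary cholangiocytes, against 17.4 to 28.1 in undifferentiated progenitors, and 8 of the 33 were above background on no array in each group, and Tyrobp, C1qc, Timd4 and Gzmb on none of either. Cd68 and Cd14, both also found in other cells, were higher by 3.37 ± 0.41 (adjusted p = 6.42e-05) and 1.95 ± 0.37 (adjusted p = 0.00209). Laptm5 was the remaining member that passed as higher. S100a8, a neutrophil protein, was at least 15-fold lower, with an adjusted p of 0.083 without primary array 3. Of 26 endothelial genes tested (28 listed) 4 were higher and 3 lower (median -0.11, or 0.19 without undifferentiated array 3), with a summed level of 8.62 to 9.43 in primary cholangiocytes, against 8.81 to 15.01 in undifferentiated progenitors, and Tie1, Robo4 and Sox18 were above background on no array of either group. Vwf, the clotting protein of endothelium, was at -2.1 and -2.36 in primary cholangiocytes, against -6.97, -4.86, -6.37 and -7.37 in undifferentiated progenitors, a difference of 4.17 ± 0.8 (adjusted p = 0.0023). It was well above background on 2 of the 4 progenitor arrays, and with normexp background correction the difference was 2.06. Stab1, a scavenger receptor of sinusoids, was at least 26.3-fold lower in primary cholangiocytes.

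Of 28 genes of stellate cells, portal fibroblasts and smooth muscle tested (29 listed) 4 were higher (14.3%) and 1 lower (3.57%), with a median of 0.83. The shares over all genes tested were 8.5% and 10.5%. The summed level of the list was 44.4 to 44.8 in primary cholangiocytes, against 19.6 to 27.0 in undifferentiated progenitors, and Gli1 was above background in neither. Pdgfra, a fibroblast receptor, was at least 2.74-fold higher (adjusted p = 0.00136, or 0.792 with normexp background correction). The other members that were higher were Thy1, Tcf21 and Col1a2, and the member that was lower was Colec11. Of 10 mesothelial genes 3 were lower (30%, against 10.5% of all genes) and 0 higher by limma (median -1.56), or 4 and 0 at an unadjusted p under 0.05. Their summed level was 280.7 to 326.4 in primary cholangiocytes, against 213.7 to 304.8 in undifferentiated progenitors. Bnc1, a mesothelial transcription factor, was at least 81.8-fold lower. Upk1b, a uroplakin, differed by -7.43 ± 1.47 (adjusted p = 0.00301) and lost its call without primary array 3 (adjusted p = 0.0642). Msln, the surface protein mesothelin, was high in both groups, at 7.4 and 7.47 in primary cholangiocytes and 6.88, 7.08, 7.37 and 7.33 in undifferentiated progenitors. Krt19, high in both groups as given above, is also on the mesothelial list. The summed level of that list thus holds a biliary keratin along with Msln and does not measure mesothelial cells alone. By limma 0 of 8 red blood cell genes (12 listed) and 0 of 15 neural, muscle and endocrine genes (19 listed) passed, and at an unadjusted p under 0.05 the counts were 1 and 3. The red blood cell genes summed to 0.971 to 1.48 in primary cholangiocytes, against 1.39 to 1.68 in undifferentiated progenitors. The part of other cell types in the differences above was not tested.

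The 2 primary cholangiocyte arrays differed from each other by at least 2 log2 units on 3023 genes (11.6%), against 5.08% to 11.1% for pairs of undifferentiated arrays. Among the 124 named genes that passed, 62 were higher and 62 lower, and without either primary array each kept its direction. The mucosal list had a median difference of 3.16 on primary array 3 and 0.79 on array 4, the interferon list 1.45 and 0.52, and the junction list 0.86 and 0.64. Only slide 3 held an array of each group, primary array 3 and undifferentiated array 1. Within that slide the median difference was 0.69 for the junction list, 3.43 for the mucosal list, 1.49 for the interferon list, -0.56 for the mitosis list and -3.80 for hepatocyte plasma proteins, and 4927 of the 4937 genes that passed had the same direction. With slide as a block in the fit 1643 genes were higher and 1884 lower.

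**Figure D5:**
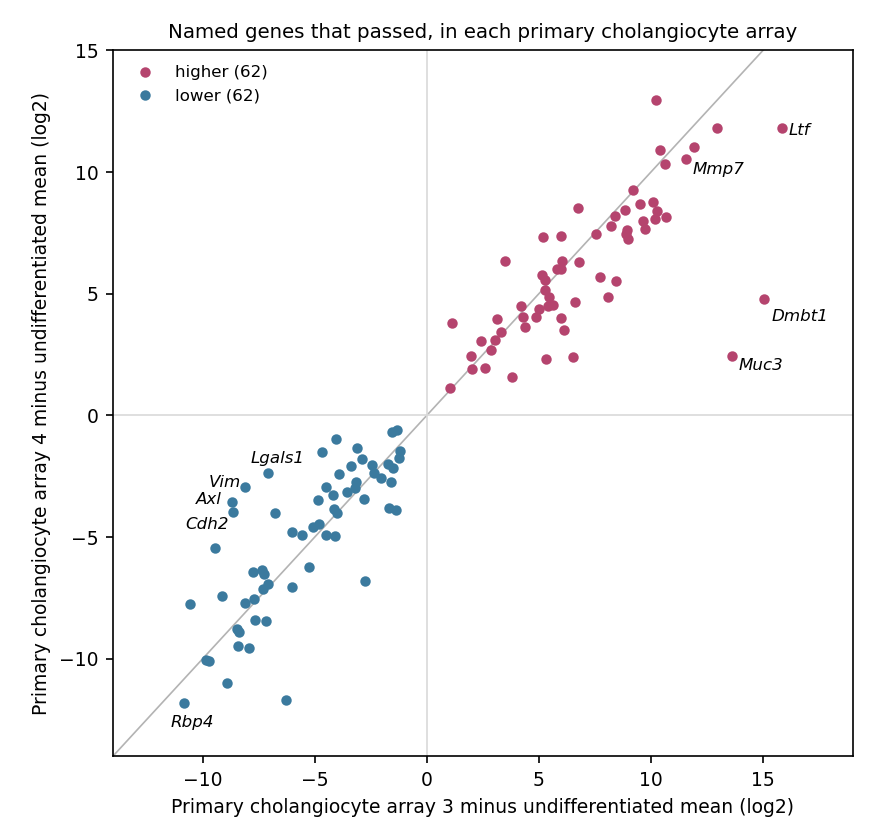
Difference of primary cholangiocyte array 4 (vertical axis) and of array 3 (horizontal axis) from the mean of the 4 undifferentiated arrays, in log2, for the 124 named genes that passed (62 higher, 62 lower), with the diagonal in grey. Most points lie along the diagonal, while Dmbt1, Muc3, Vim, Axl, Cdh2 and Lgals1 lie far from the diagonal.

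Several of the genes were also set against primary hepatocytes and against progenitors under the cholangiocyte condition, which share the primary cholangiocyte arrays with the comparison above, so the values stand side by side. In primary cholangiocytes minus primary hepatocytes 12886 genes (49.6%) passed, and in primary cholangiocytes minus the cholangiocyte condition 5088 genes (19.6%). Mmp7 differed from primary hepatocytes by 12.33 ± 0.96 (adjusted p = 1.3e-07) and from the cholangiocyte condition by 11.85 ± 1.01 (adjusted p = 3.6e-06), and Grhl2 by 7.96 ± 0.51 (adjusted p = 1.95e-08) and 8.32 ± 0.54 (adjusted p = 3.98e-07). Krt7 and Krt19, which did not pass against undifferentiated progenitors, were higher than in primary hepatocytes by 13 ± 0.41 (adjusted p = 1.53e-11) and 14.01 ± 0.62 (adjusted p = 4.31e-10). Epcam, Wfdc2 and Spp1 were also higher than there, by 9.41 ± 0.88, 7.57 ± 0.79 and 4.51 ± 0.54 (adjusted p = 8.25e-07, 2.36e-06 and 9.18e-06). Other duct genes were not: Pkhd1 was lower, with a difference of -2.58 ± 0.53 (adjusted p = 0.000975). Sox9, Cftr and Sctr did not pass against primary hepatocytes, with differences of 0.72 ± 0.67, -1.64 ± 1.66 and -0.72 ± 0.46 (adjusted p = 0.39, 0.426 and 0.212). Cldn3 did not pass against primary hepatocytes, where it was at 4.17, 4.79, 4.52 and 4.32, with a difference of -0.13 ± 0.91 (adjusted p = 0.918), and it differed from the cholangiocyte condition by 10.5 ± 0.96 (adjusted p = 6.9e-06). Dsc2 likewise did not pass against primary hepatocytes and differed by -0.77 ± 0.99 (adjusted p = 0.536). Scnn1a was higher than in primary hepatocytes by 1.69 ± 0.41 (adjusted p = 0.00337). Rbp4, Vim and Zeb1 were lower than under the cholangiocyte condition, with differences of -12.08 ± 0.4 (adjusted p = 6.87e-10), -5.53 ± 0.97 (adjusted p = 0.00137) and -7.55 ± 0.32 (adjusted p = 4.51e-09). Cyp2f2 was lower than in primary hepatocytes, where it was at 8.22, 8.14, 8.13 and 8.31, with a difference of -7.69 ± 2.22 (adjusted p = 0.0104).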

How the data were processed

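Total RNA was amplified with WT-Ovation Pico and labelled with Cy3, per the labels' protocols. The scans were read by Agilent Feature Extraction, in version 10.5.1.1 per the file headers and 9.53 per the submitters' processing notes. The deposited intensity is that program's processed, background-subtracted signal, not scaled across the series. The authors' deposited comparison table holds a score per gene, a signed fold change, with its false discovery rate, and served only as an alternative. How it was tested is not given in the sources used here.

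Of 39429 probes, 143 with an outlier spot were left out and 32295 well above background on at least 2 of the 17 arrays were kept. Values are log2 intensity minus the log2 of the array's 75th percentile over non-control probes. Gene names were updated through RefSeq GRCm38.p6 (26412 probes by accession, 8428 kept the file's name), and the brightest probe stood for a gene. A gene counted as above background on an array if any of its probes was. Group means were fitted with limma 3.58.1 (R 4.3.3, statmod 1.5.0), two-sided. On simulated data the fit recovered 9.5%, 54.5% and 73.5% of 200 genes changed by 1, 2 and 3 log2 units. Figures were drawn with matplotlib 3.10.9.

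Members, gene lists and the naming rule were set with earlier results of these data known. That rule took 18 set marker genes, the genes with the largest differences or bounds in each direction, and up to 5 passing and 2 other members per list and direction, and the text gives part of them. List members given by direction only, without a value, are not counted among the named genes. A few genes under the rule are not reported here. Krt8, Cdh1, Crb3, Esrp1, Slpi, Lcn2, Muc3, Car2, S100a4 and Notch2 fall outside it and were chosen after their values were seen. Of 39 named genes with several probes 34 had all probes called alike, and the exceptions were Ncam1, Notch2, Rsph1, Sctr and Zeb2. The alternatives were other scalings, backgrounds, filters, slide and replicate blocks, and fits without single arrays. Counts of list members without a primary array or in the fit to the compared arrays alone were added after seeing the data.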

Additional observations from a re-analysis of the deposited data

Results flagged for a closer look

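In 8 named genes 1 of the 4 undifferentiated arrays stood apart from the other 3 by a gap over Dixon's critical share of the group's range, and chance alone marks about 1 in 20 groups. Array 1 was low for Krt18, at 7.60, and high for Cyp2f2, at -7.45. Array 3 was low for Spp1, at 3.87, for Kit, at -9.48, and for Stab1, at -4.02. Array 4 was high for Lgals1, at 6.87, and low for Hoxb13, at -2.84, and for Notch2, at 1.13.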

How the results depend on the processing

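Of the 124 named genes that passed, 90 kept their call in every alternative fit and none reversed in a fit or on the shared slide. Of all genes that passed, 4936 have a value in the authors' deposited table, and 4936 had the same direction there. Of the genes tested, 3666 are under the 5% false discovery rate of the authors' deposited table, against 4937 that passed here, and there B2m (10.55%), Muc3 (7.67%), Abcc1 (6.29%) and Sox9 (5.38%) are over it. With normexp background correction 37 of the 124 differences were over 1.5 times smaller and 4 lost their call. The counts of higher and lower genes stayed within 1.5 times of 2208 and 2729 except in the fit to the compared arrays alone, which called 872 and 752 genes and ended 27 of the 124 calls, and, for lower genes, without primary array 3 (1782). Without single arrays the counts were 1531 to 2038 higher and 1782 to 2464 lower. The fit to the compared arrays alone called 1068 genes in place of 5088 between primary cholangiocytes and the cholangiocyte condition. Genes that had not passed changed sign: Krt18 with median scaling (-0.17), Ccn2 with a slide block (0.18), and, without single arrays, Krt18 (-0.068 to 0.22), Cftr (-0.036 to 1.64), Afp (-2.62 to 0.19) and Ccn2 (-1.15 to 0.25). The cause was not tested. Hybridisation numbers 3 and 4 occur in both groups, and the labels do not say that a number marks a shared batch. Deviations of same-numbered arrays had r = -0.068 and -0.026, but those of the 2 primary arrays mirror each other, so this can hardly show or exclude a shared batch. With that number as a replicate block 2054 genes were higher and 2472 lower. The number of arrays, 2 against 4, limits the precision, and values near background have little meaning beyond their order.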
